A study of Rattus norvegicus with 69 samples.

Results

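The comparison described here sets livers of rats given PYY3-36 alone against livers of rats given saline, all of batch B. It was formed from the sample labels alone, by taking the 5 libraries labelled PYY, all of batch B, and the 5 saline libraries of the same batch, which makes 10 of the 69 libraries of the series. All animals were male Wistar rats, 9 to 10 weeks old at the start, that had been fed a high-fat diet for about 6 weeks. PYY3-36 rats then received PYY3-36 at 0.1 mg/kg per day from an osmotic minipump together with subcutaneous saline, and saline rats received saline by both routes. Treatment lasted 24 days with free choice between a high-fat and a low-fat chow, and livers were taken after an overnight fast. Liraglutide at 0.4 mg/kg per day, alone in 5 rats and together with PYY3-36 in another 5 rats of batch B, is used below only to place the PYY3-36 values.

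PYY3-36 is the form of the gut hormone peptide YY that remains after the protease DPP4 removes its first residues. It is released from enteroendocrine L cells of the lower gut after meals and lowers food intake mainly through the Y2 receptor on neurons. The hepatocyte, the main cell of the liver, handles glucose, lipids and bile acids under the control of insulin, glucagon and the feeding cycle, and responds to gut hormones in large part through those signals.

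Poly(A)-selected, strand-specific libraries of liver RNA were counted per gene, and the 10 libraries held 14762728 to 26765063 reads in genes. Levels are given as CPM, which sets the reads of a gene against the size of its library, scaled by the trimmed mean of M values (TMM). The libraries of 2 rats stood apart from the rest of their groups. In PYY3-36 replicate 5, 45.6% of the 14341 tested genes lay over 2-fold from the mean of the other 9 libraries, and in saline replicate 9 this held for 10.5%, against 1.35% to 4.67% in the other 8 libraries. On the first principal component (64.8% of the variance) lay PYY3-36 replicate 5 at 144, saline replicate 9 at 47.9 and the other 8 libraries between -31.4 and -12.2. Results that rest on these libraries are therefore also given without PYY3-36 replicate 5, or without both. The hepatocyte markers, such as albumin, were summed at 129400 to 198700 CPM in PYY3-36 livers and 106300 to 162000 CPM in saline livers, and the 8 skeletal muscle markers at no more than 0.676 CPM in any of the 10 libraries.

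**Figure D1:**
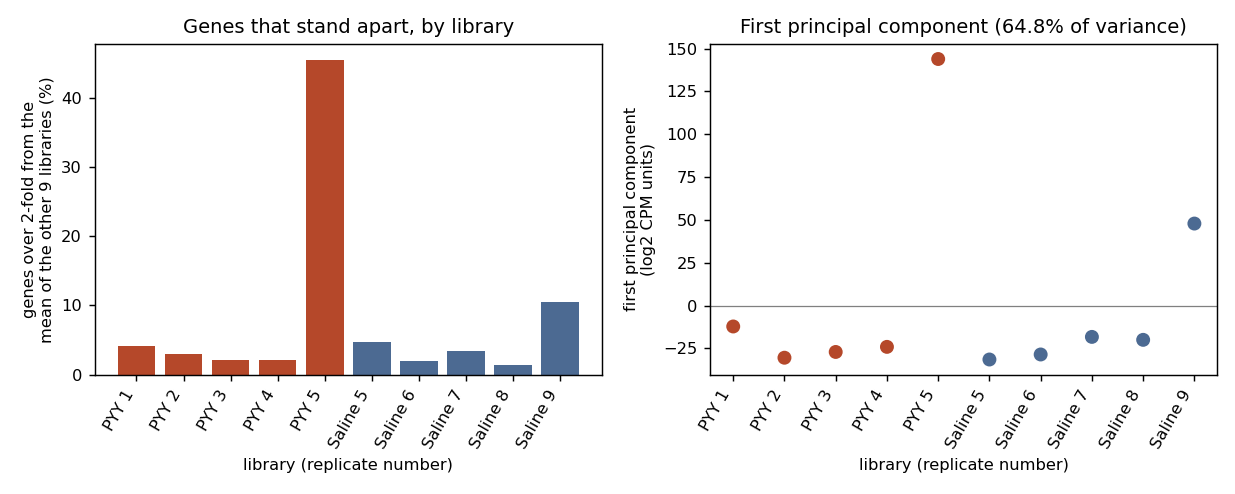
Percentage of tested genes over 2-fold from the mean of the other 9 libraries (left, bars) and the position on the first principal component of log2 CPM (right, points), for the 5 PYY3-36 libraries (red) and the 5 saline libraries (blue). PYY3-36 replicate 5, at 45.6% and 144, and saline replicate 9, at 10.5% and 47.9, stood apart from the other 8 libraries.

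No gene passed an adjusted p of 0.05 in PYY3-36 versus saline livers (0 of 14341 tested genes, 0%, edgeR quasi-likelihood test with Benjamini and Hochberg adjustment), and the smallest adjusted p was 0.998. DESeq2, without and with shrinkage of the fold changes, and limma-voom with sample quality weights also called 0 genes. At an unadjusted p under 0.05 they gave 487 of 24413, 474 of 24413 and 843 of 14341 genes. At an unadjusted p under 0.05, edgeR gave 118 genes with a higher level in PYY3-36 livers (0.823%) and 139 with a lower level (0.969%). These counts moved with single libraries. The 257 genes at an unadjusted p under 0.05 became 430, 463 and 625 without PYY3-36 replicate 3, 4 or 5, and 162 and 165 without saline replicate 5 or 7. Without PYY3-36 replicate 5, 244 genes were higher (1.68% of 14553) and 381 lower (2.62%), and without both libraries that stood apart 221 were higher (1.53% of 14409) and 334 lower (2.32%), again with 0 genes (0%) at an adjusted p under 0.05. The lowest adjusted p values were then 0.854 and 0.922. The levels of the groups did not overlap for 19 genes with PYY3-36 above saline (0.132%) and for 22 with PYY3-36 below (0.153%). None of the differences from saline that follow thus passed the test across all genes, which does not show that they were absent. The main ones are given with the values of their livers. The median log2 fold change of all tested genes was 0.03 with 53.2% of genes positive, -0.04 with 45% positive without PYY3-36 replicate 5, and -0.01 with 47.7% positive without both.

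Of the peptide YY system itself, little RNA was present in liver. Pyy, the precursor gene, Npy2r, Npy4r and Npy5r, which encode Y receptors, and Ppy and Gcg, which encode pancreatic polypeptide and proglucagon, had 0 reads in all 10 libraries. Counts of 0 allow a level of up to 0.112 to 0.203 CPM, taking 3 reads of each library's total, and cover counting error only. Npy1r, a Y receptor, had reads only in PYY3-36 replicate 5, at 0.404 CPM, and in saline replicate 6, at 0.277 CPM, and Glp1r, the receptor that liraglutide binds, only in saline replicate 6, at 0.0553 CPM. Dpp4, the protease that makes PYY3-36, had 124, 103, 103, 73.8 and 98.0 CPM in PYY3-36 livers, against 85.5, 89.2, 95.5, 100 and 116 CPM in saline livers. Its groups overlapped along their whole length, with a log2 fold change of 0.05 ± 0.19 (SE). Npy, the neuropeptide of the same family, lay between 0.539 and 3.86 CPM in PYY3-36 livers and between 1.30 and 3.38 CPM in saline livers, with a log2 fold change of -0.05, the sign of which reversed in some settings.

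Among genes of hepatic glucose handling, Pfkfb1, the bifunctional enzyme that sets fructose-2,6-bisphosphate in liver, had 9.87, 10.2, 23.96, 23.6 and 20.3 CPM in PYY3-36 livers and 44.7, 19.2, 32.5, 19.9 and 55.5 CPM in saline livers, a log2 fold change of -0.97 ± 0.38 (SE, unadjusted p = 0.0268). The groups overlapped, with saline replicates 5, 7 and 9 above every PYY3-36 liver. Ppp1r3g, a glycogen-targeting subunit of protein phosphatase 1, had a log2 fold change of -1.67 (unadjusted p = 0.0523), and its highest level, 9.64 CPM, was in saline replicate 5. Of the 19 tested genes for gluconeogenesis and glucose handling, 8 had a positive and 11 a negative fold change with a median of -0.11, beside 0.03 for all genes, and none passed the adjusted threshold.

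In the insulin and insulin-like growth factor list, 12 of the 21 tested genes were positive and 9 negative, with a median of 0.15. Igfbp1, a secreted IGF-binding protein that insulin represses and that fasting raises, lies on chromosome 14 (87448716 to 87453783, Rnor_6.0). It had 17.0, 51.8, 26.9, 24.04 and 15.5 CPM in PYY3-36 livers, against 523, 30.4, 257, 38.4 and 26.7 CPM in saline livers. Saline replicates 5 and 7 were far above all other livers, and the other 3 saline livers lay within the PYY3-36 range. The log2 fold change was -2.69 ± 0.85 (SE, unadjusted p = 0.00907). Adora1, the A1 adenosine receptor, a Gi-coupled receptor, had 7.05, 8.90, 5.59, 7.35 and 4.31 CPM in PYY3-36 livers and 2.54, 3.93, 1.87, 4.14 and 3.86 CPM in saline livers. Every PYY3-36 liver was above every saline liver, PYY3-36 replicate 5 by the least, with a log2 fold change of 1.02 ± 0.29 (SE, unadjusted p = 0.00445). Pdzk1, a scaffold protein that holds the HDL receptor at the hepatocyte surface, had 34.6, 43.8, 34.5, 34.4 and 34.2 CPM in PYY3-36 livers, against 27.0, 24.9, 20.4, 29.7 and 20.6 CPM in saline livers. These groups were apart too, and the log2 fold change was 0.57 ± 0.18 (SE, unadjusted p = 0.00874).

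**Figure D2:**
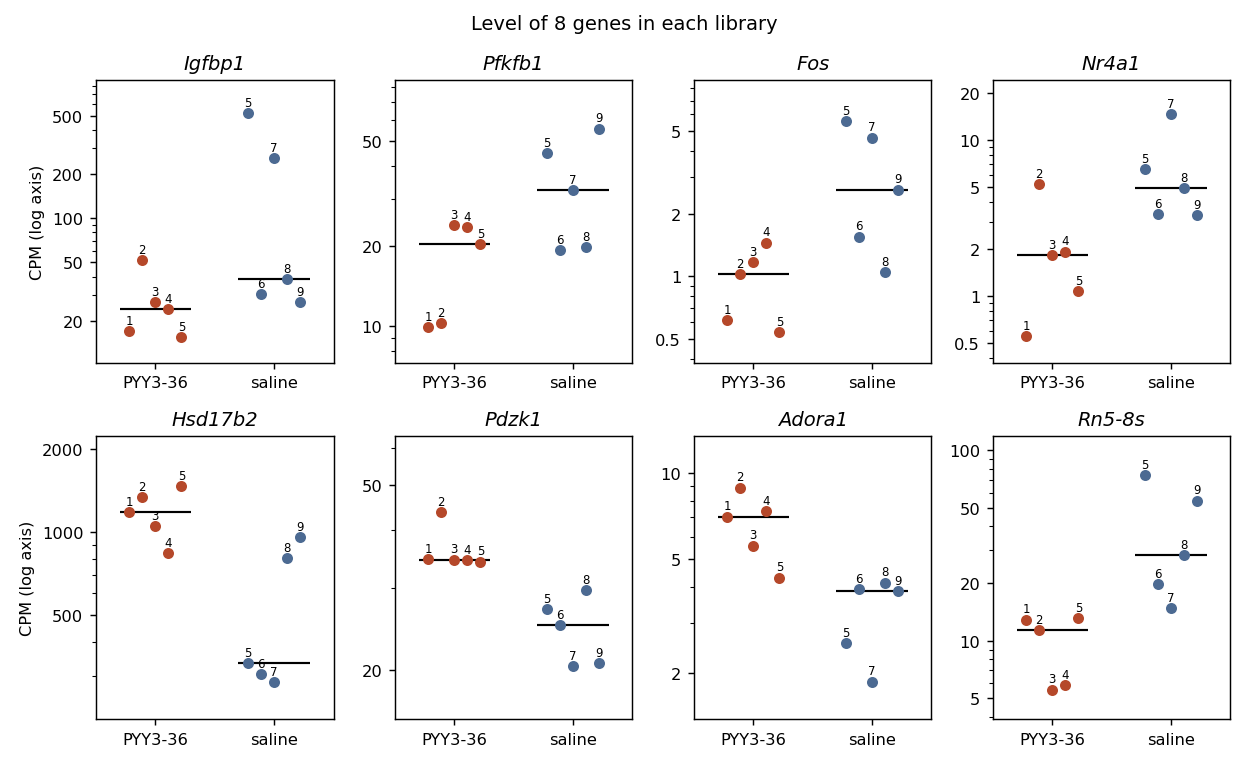
Level of 8 genes in CPM (log axis) in each PYY3-36 liver (red, left) and each saline liver (blue, right), numbered by replicate, with the group median as a line. Saline replicates 5 and 7 set the high Igfbp1 and Fos levels, and the groups were apart for Pdzk1, Adora1 and Rn5-8s.

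Hsd17b2 encodes the hydroxysteroid dehydrogenase that inactivates oestradiol and testosterone. It had 1184, 1335, 1053, 838 and 1465 CPM in PYY3-36 livers, against 334, 307, 285, 807 and 962 CPM in saline livers. Saline replicates 5, 6 and 7 were well below all PYY3-36 livers, whereas saline replicate 9 lay within the PYY3-36 range and saline replicate 8 just under it. Its log2 fold change was 1.12 ± 0.38 (SE, unadjusted p = 0.0124). Against the same saline livers, in the joint fit described below, the log2 fold change was 1.04 with liraglutide and 1.44 with both agents. The remaining genes with the lowest p among those positive were Ddo, which oxidises D-aspartate (1.38 on the log2 scale), Tead2, a Hippo pathway transcription factor (0.87), Fam184a (0.87), Pla2g16, a phospholipase (1.09), Abcg5, Pdia6 and Tob1, the last of these through a single library. Among those negative were Ppard, the nuclear receptor PPARdelta (-1.33), Adamts1, a secreted metalloproteinase (-1.02), and Cfd, complement factor D (-0.75). Rgs16, a regulator of G protein signalling, had a log2 fold change of -2.81, but its 37.6 CPM in saline replicate 7 stood against 0.609 to 2.57 CPM in PYY3-36 livers and 1.47 to 2.99 CPM in the other 4 saline livers.

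Levels of several circadian clock genes varied widely between livers of the same group. The clock is a transcriptional loop in which ARNTL (BMAL1) with CLOCK or NPAS2 drives Per, Cry and Nr1d1 genes and output factors such as DBP and HLF, whose products then repress or modulate the loop, so that the 2 arms peak at opposite times of day. Promoters of Per2 and Arntl are shown because they stand for these arms, with 250 bases before and 50 after the start of the gene from RefSeq on GRCr8. Capitals in Per2 mark a D-box, TTATGTAA, and a variant E-box, CACGTT, and capitals in Arntl mark TAGGTCA, the core bound by ROR and REV-ERB receptors.
Per2, chr9:99496944-99497243, minus strand: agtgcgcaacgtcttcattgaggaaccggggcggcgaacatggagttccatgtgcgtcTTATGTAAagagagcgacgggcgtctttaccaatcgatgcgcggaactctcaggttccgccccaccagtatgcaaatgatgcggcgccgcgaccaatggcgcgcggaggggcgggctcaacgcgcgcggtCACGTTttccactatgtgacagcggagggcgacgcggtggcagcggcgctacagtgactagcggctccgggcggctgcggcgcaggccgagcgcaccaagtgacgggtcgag
Arntl, chr1:176766078-176766377, plus strand: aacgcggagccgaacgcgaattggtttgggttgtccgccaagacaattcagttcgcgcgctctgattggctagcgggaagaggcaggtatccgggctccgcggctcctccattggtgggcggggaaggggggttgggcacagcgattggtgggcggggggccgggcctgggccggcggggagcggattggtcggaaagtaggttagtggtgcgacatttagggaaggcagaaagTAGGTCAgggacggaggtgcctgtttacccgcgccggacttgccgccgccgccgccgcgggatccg
Searched on both strands, with no overlap between the motifs, CACGTT is held by 4.83%, TTATGTAA by 0.893% and TAGGTCA by 2.63% of all 33469 rat promoters of this length. The matches describe the sequence only.

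Arntl had 6.37, 4.45, 3.25, 8.80 and 7.94 CPM in PYY3-36 livers, against 18.1, 15.0, 23.8, 6.86 and 2.72 CPM in saline livers. Saline replicates 5, 6 and 7 were above all PYY3-36 livers, and replicates 8 and 9 were not. Dbp, of the other arm, had 86.5, 148, 140, 104 and 68.2 CPM in PYY3-36 livers and 5.53, 14.2, 14.2, 69.4 and 120 CPM in saline livers, so that the same 3 saline livers were low and the other 2 lay within the PYY3-36 range. Npas2 had 15.2, 11.1, 11.2, 13.4 and 30.0 CPM in PYY3-36 livers, against 32.8, 34.6, 32.3, 14.4 and 5.76 CPM in saline livers, again with saline replicates 5, 6 and 7 highest. Hlf, whose protein resembles DBP, had 28.3, 40.5, 25.1, 31.9 and 37.0 CPM in PYY3-36 livers and 19.1, 14.4, 13.9, 23.1 and 35.8 CPM in saline livers. Only saline replicate 9 was within the PYY3-36 range. Per2, a repressor of the loop, had 22.1, 60.3, 40.5, 76.4 and 31.7 CPM in PYY3-36 livers and 24.4, 24.8, 26.1, 29.3 and 37.6 CPM in saline livers, and the groups overlapped.

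The log2 fold changes were -1.11 ± 0.51 for Arntl (SE, unadjusted p = 0.0517), 1.29 ± 0.71 for Dbp (unadjusted p = 0.0961), -0.57 ± 0.47 for Npas2 (unadjusted p = 0.252), 0.61 ± 0.28 for Hlf (unadjusted p = 0.0502) and 0.70 ± 0.32 for Per2 (unadjusted p = 0.0505). Of the 20 tested clock genes, 0 had an unadjusted p under 0.05 in either direction with all 10 libraries, beside 0.823% and 0.969% of all genes. Without PYY3-36 replicate 5, 5 clock genes were higher and 1 lower at that threshold, beside 1.68% and 2.62% of all genes, and without saline replicate 9 as well 8 were higher and 3 lower, beside 1.53% and 2.32%. Leaving out this pair was chosen after seeing the data. Saline replicate 9 had the highest Dbp, Hlf and Per2 and the lowest Arntl and Npas2 of the saline livers. The counts without the pair thus depend on which livers were removed and are no separate evidence of a clock difference. Nr1d1, which encodes the repressor REV-ERBalpha, was an example, with 96.8, 110, 134 and 91.2 CPM in PYY3-36 replicates 1 to 4, 11.6 CPM in PYY3-36 replicate 5, and 38.3, 55.7, 78.6, 86.1 and 31.4 CPM in saline livers. Its log2 fold change was 0.61 ± 0.52 with all libraries and 0.90 without PYY3-36 replicate 5 (unadjusted p = 0.00825). Cry2, a repressor, had 22.5, 26.4, 19.0, 24.5 and 5.99 CPM in PYY3-36 livers and 16.6, 14.05, 16.6, 15.7 and 10.7 CPM in saline livers, with the first 4 PYY3-36 livers above every saline liver. Per3 had log2 fold changes of 0.78 with all libraries and 1.07 without PYY3-36 replicate 5. Dbp, Npas2, Nr1d1, Cry2 and Per3 were named after their values were seen. None of these genes had an adjusted p under 0.854 in either setting without outlying libraries. The hour at which each liver was taken is not given in the sources used here.

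**Figure D3:**
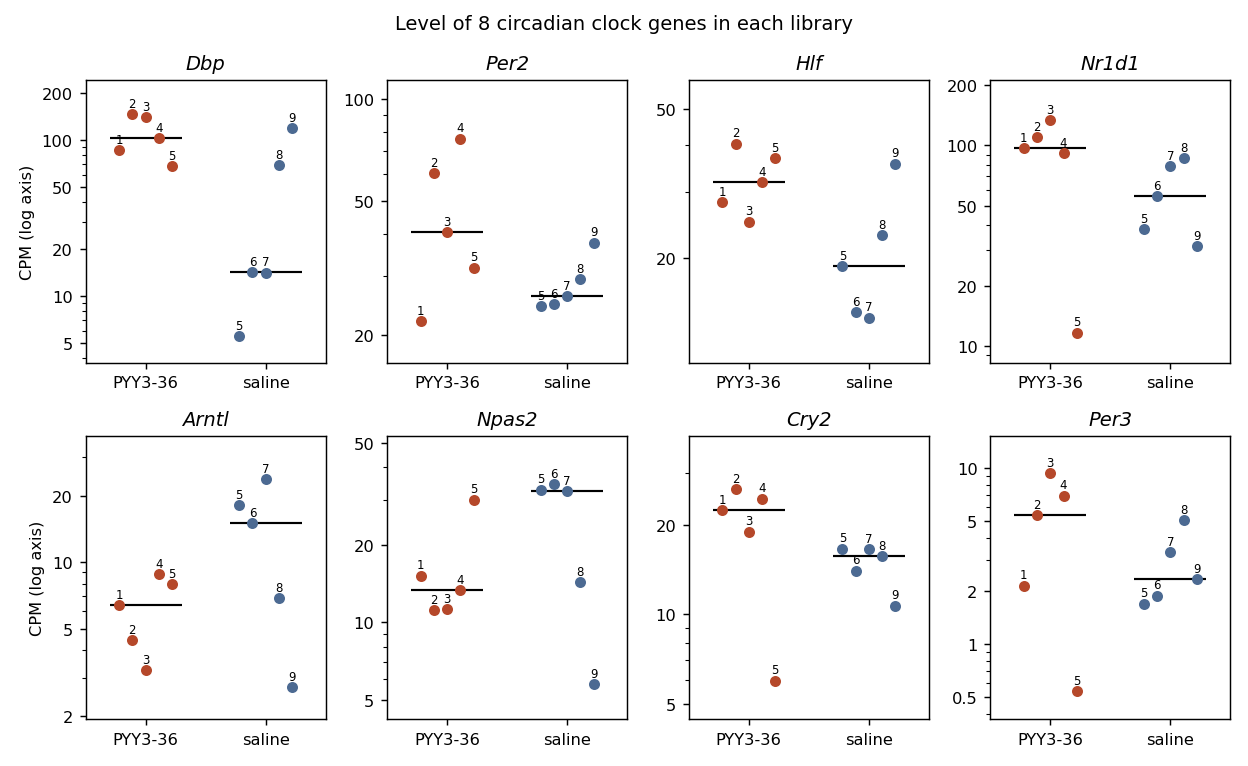
Level of 8 clock genes in CPM (log axis) in each PYY3-36 liver (red, left) and each saline liver (blue, right), numbered by replicate, with the group median as a line. Saline replicates 5, 6 and 7 were low for Dbp and high for Arntl and Npas2, and saline replicate 8 lay within the PYY3-36 range for all 3 of these genes.

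Immediate early genes, which respond to growth factor, hormone and stress signals within minutes, were for the most part lower in PYY3-36 livers, without a difference that passed the test. Of the 17 tested, 3 had a positive and 14 a negative fold change, with a median of -0.51 beside 0.03 for all genes, and Fos and Nr4a1 had an unadjusted p under 0.05. Over all genes 53.2% were positive and 0.969% were lower at that threshold. Without PYY3-36 replicate 5 the median of the list was -0.45 beside -0.04. Fos, a subunit of the AP-1 factor, had 0.613, 1.03, 1.17, 1.45 and 0.539 CPM in PYY3-36 livers, against 5.58, 1.55, 4.64, 1.05 and 2.61 CPM in saline livers. Saline replicate 8 lay among the PYY3-36 livers and the other 4 saline livers above them, with a log2 fold change of -1.66 ± 0.48 (SE, unadjusted p = 0.00553). Nr4a1, an orphan nuclear receptor induced by glucagon and stress, had 0.552, 5.25, 1.83, 1.93 and 1.08 CPM in PYY3-36 livers and 6.54, 3.37, 14.8, 4.92 and 3.31 CPM in saline livers, with only PYY3-36 replicate 2 within the saline range. Its log2 fold change was -1.60 ± 0.60 (SE, unadjusted p = 0.0216). Myc, a growth-promoting transcription factor, and Atf3, a stress-induced one, had log2 fold changes of -1.01 and -1.14, and -1.36 and -1.50 without PYY3-36 replicate 5. Atf3 was named after its values were seen.

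With all 10 libraries, endoplasmic reticulum chaperones leaned the other way, whereas several heat shock genes of the same list did not. Dnajb1, Hsph1, Hspa8 and Hspb1 had log2 fold changes of -0.19, -0.18, -0.15 and -0.23. Without PYY3-36 replicate 5 these were -0.31, -0.18, 0.07 and 0.05, so that Hspa8 and Hspb1 changed sign. Hsp90aa1 had log2 fold changes of 0.55 with all libraries, -1.07 without PYY3-36 replicate 5 and -0.17 without both libraries that stood apart. Its level was 287 CPM in saline replicate 9 and 51.6 to 57.7 CPM in the other saline livers. These heat shock genes were named after their values were seen. Of the 23 tested genes of the list, 18 were positive and 5 negative with a median of 0.31. Pdia6, Calr and Pdia4, which fold secreted proteins, had an unadjusted p under 0.05. Over all genes 53.2% were positive and 0.823% were higher at that threshold. Pdia6, a disulfide isomerase, had 180, 136, 130, 99.8 and 187 CPM in PYY3-36 livers and 92.3, 85.3, 105, 111 and 83.5 CPM in saline livers. Only PYY3-36 replicate 4 lay within the saline range, and the log2 fold change was 0.62 ± 0.22 (SE, unadjusted p = 0.0145). Calr, the calcium-binding chaperone calreticulin, had a log2 fold change of 0.62, Pdia4 one of 0.61 and Hspa5, the main chaperone of the endoplasmic reticulum and named after its values were seen, one of 0.39. The median of the list was 0.09 without PYY3-36 replicate 5, beside -0.04 for all genes, with 16 of the 23 positive and 4 at an unadjusted p under 0.05 and higher. The log2 fold changes of Pdia6, Calr, Pdia4 and Hspa5 were then 0.53, 0.49, 0.62 and 0.43. Other members did not hold. Canx, Dnajb9 and Herpud1 went from 0.75, 2.03 and 0.31 with all libraries to -0.37, -0.12 and -0.13. Hsp90b1 went from 0.62 to 0.08. Canx, Dnajb9, Herpud1 and Hsp90b1 were named after their values were seen.

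No difference in lipid metabolism genes stood out between the groups. None of the 20 tested genes for fatty acid synthesis, 24 for cholesterol synthesis, 15 for lipid droplet proteins and lipases, 28 for fatty acid oxidation or 6 for ketogenesis had an unadjusted p under 0.05 in either direction. That threshold was passed by 0.823% (higher) and 0.969% (lower) of all genes. Counts of 0 in lists of this size lie near these shares. Their medians were 0.03, -0.03, -0.05, 0.13 and 0.22. Plin2, the main coat protein of lipid droplets in the hepatocyte, had 108, 99.4, 43.6, 145 and 55.5 CPM in PYY3-36 livers and 164, 144, 193, 97.1 and 57.2 CPM in saline livers, with wide overlap and a log2 fold change of -0.54 ± 0.39 (SE, unadjusted p = 0.2). Fasn, fatty acid synthase, had 31.3, 21.2, 22.04, 29.6 and 19.5 CPM in PYY3-36 livers, against 34.1, 25.3, 111, 24.5 and 25.7 CPM in saline livers. Saline replicate 7 stood alone, and this liver also had the highest level of Insig1, a sterol sensor, at 176 CPM against 11.6 to 36.2 CPM in PYY3-36 livers. Squalene epoxidase, Sqle, had a log2 fold change of -0.92 (unadjusted p = 0.113).

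Among the 18 tested genes for apolipoproteins and lipoprotein assembly, 11 were positive and 7 negative with a median of 0.14. Over all genes 53.2% were positive and 0.969% were lower at an unadjusted p under 0.05. Angptl4, an inhibitor of lipoprotein lipase that fatty acids and fasting induce, was the only gene of the list under that threshold. It had 52.0, 51.7, 33.8, 77.2 and 20.1 CPM in PYY3-36 livers and 88.4, 79.8, 169, 64.9 and 47.3 CPM in saline livers, with a log2 fold change of -0.93 ± 0.41 (SE, unadjusted p = 0.0422). The groups overlapped, and saline replicate 7 was again highest. Of the 19 tested genes for bile acid synthesis and transport, 14 were positive with a median of 0.38, and 9 with a median of -0.0026 without PYY3-36 replicate 5. Over all genes 0.823% were higher at an unadjusted p under 0.05, and 45% were positive without that library. Abcg5, which with its partner exports sterols into bile, had 12.01, 19.1, 29.3, 8.76 and 33.4 CPM in PYY3-36 livers, against 8.63, 12.8, 5.71, 13.04 and 6.52 CPM in saline livers, with overlap and a log2 fold change of 1.14 ± 0.40 (SE, unadjusted p = 0.0153).

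Sex-biased and drug-metabolising genes held a further gene whose groups were apart. Cyp2c11, the main male-specific cytochrome P450 of rat liver, had 1953, 1404, 1401, 1443 and 1692 CPM in PYY3-36 livers and 1087, 945, 1302, 1370 and 1120 CPM in saline livers. All PYY3-36 livers were above all saline livers, 1401 against 1370 CPM at the nearest, and the log2 fold change was 0.44 ± 0.19 (SE, unadjusted p = 0.0394). Reads shared with related Cyp2c genes were divided among them by the counting. Srd5a1, a steroid reductase, had 307, 179, 165, 55.1 and 31.4 CPM in PYY3-36 livers and 115, 35.3, 43.5, 44.1 and 42.6 CPM in saline livers. The groups overlapped, and its log2 fold change was 1.40 ± 0.58 (SE, unadjusted p = 0.0337). Of the 19 tested sex-biased genes, 16 were positive with a median of 0.34, and 15 with a median of 0.26 without PYY3-36 replicate 5. Over all genes 53.2% and 45% were positive in these settings, and no gene passed the adjusted threshold in either. The list was not split by sex, so that these counts give no direction of sex bias.

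**Figure D4:**
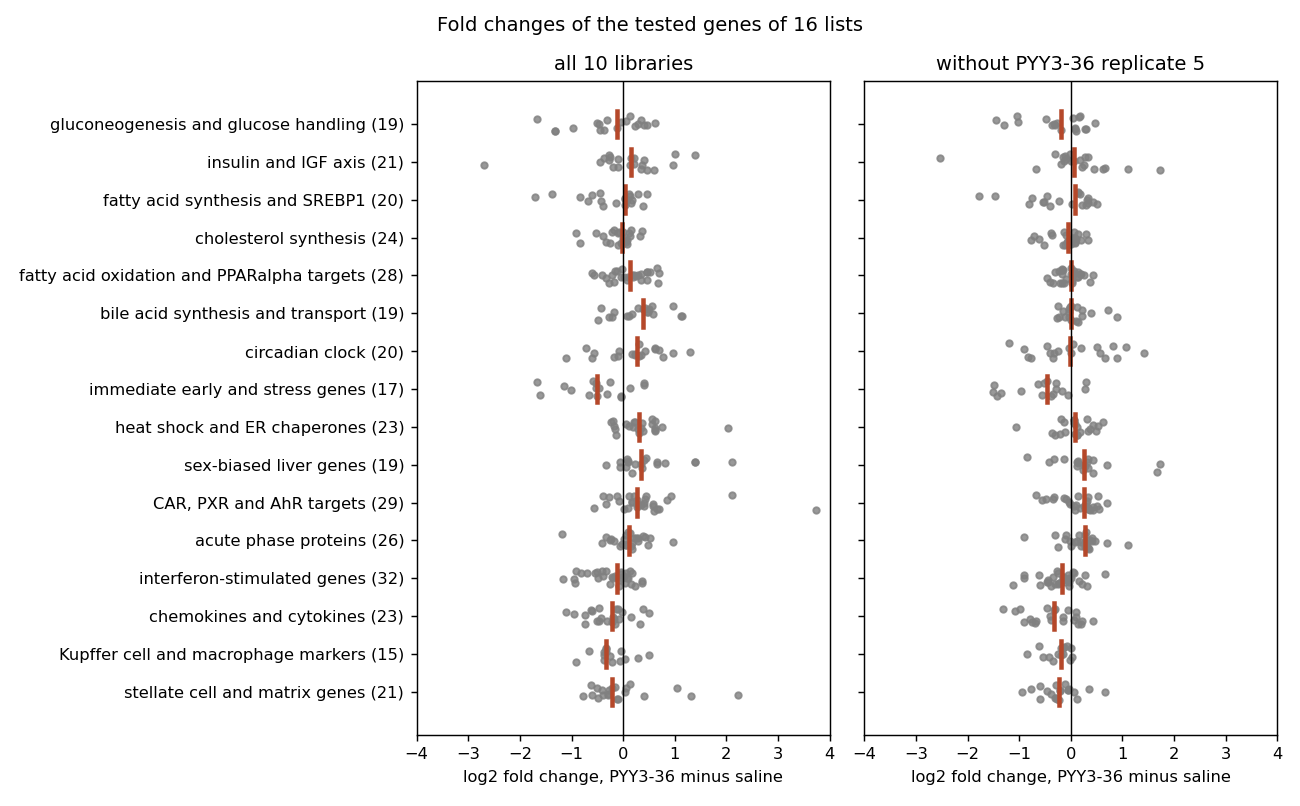
Log2 fold changes (PYY3-36 minus saline, horizontal axis) of the tested genes of 16 lists, 1 point a gene and the list median as a red line, with the number of tested genes in parentheses, for all 10 libraries (left) and without PYY3-36 replicate 5 (right). The median of immediate early genes was -0.51 and then -0.45, and that of bile acid genes 0.38 and then -0.0026.

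Tnf, the gene of an inflammatory cytokine, was not tested and lay at or under 0.242 CPM in PYY3-36 livers and at or under 0.113 CPM in saline livers. Il1b, the cytokine interleukin 1 beta, had 3.003, 4.26, 3.61, 2.90 and 12.3 CPM in PYY3-36 livers, against 8.29, 2.71, 7.24, 6.08 and 8.64 CPM in saline livers, with overlap. Its log2 fold change was -0.34 with all libraries and -0.93 without PYY3-36 replicate 5, which had the highest level (unadjusted p = 0.0119, adjusted p = 0.854). Fgf21, a hepatokine of the fasted liver, had a log2 fold change of -0.43 with overlapping groups. Of 23 tested chemokines and cytokines, 4 were positive and 19 negative with a median of -0.22. Il18, Cxcl10 and Ccl3 had an unadjusted p under 0.05, with log2 fold changes of -0.60, -0.96 and -1.11, beside 0.969% of all genes lower at that threshold and 53.2% positive. Il18, a cytokine of macrophages, had 6.74, 7.65, 7.51, 7.69 and 10.2 CPM in PYY3-36 livers and 14.7, 8.90, 11.1, 9.43 and 16.1 CPM in saline livers, with only PYY3-36 replicate 5 within the saline range.

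Beside these, 12 of the 15 Kupffer cell and macrophage markers were negative with a median of -0.33, where 53.2% of all genes were positive. The summed level of the list was 268 to 478 CPM in PYY3-36 livers and 308 to 554 CPM in saline livers. Marco, a scavenger receptor of Kupffer cells, was the member with the lowest p, at a log2 fold change of -0.92 ± 0.43 (SE, unadjusted p = 0.058). In whole liver, fewer cells of a type and less RNA per cell cannot be told apart. T and NK cell markers were negative in 8 of 9 and summed to 28.5 to 37.1 CPM in PYY3-36 livers and 33.2 to 53.9 CPM in saline livers, and blood markers were positive in 6 of 7, at 383 to 884 CPM in PYY3-36 livers and 250 to 645 CPM in saline livers. The part of these cells in the cytokine values was not tested. Of 21 stellate cell and matrix genes, 14 were negative with a median of -0.23, and Timp1, an inhibitor of matrix proteases, had a log2 fold change of -0.77 ± 0.32 (SE, unadjusted p = 0.0364).

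The lowest p of a named gene belonged to Rn5-8s, an annotated copy of the 5.8S ribosomal RNA on chromosome 14 (46646165 to 46646320, Rnor_6.0). It had 12.9, 11.4, 5.53, 5.85 and 13.2 CPM in PYY3-36 livers, against 74.5, 19.8, 14.9, 28.1 and 54.4 CPM in saline livers. The groups were apart, with a log2 fold change of -1.97 ± 0.47 (SE, unadjusted p = 0.00149). Trnw and Trni, mitochondrial transfer RNAs, had log2 fold changes of -1.51 ± 0.41 and -1.52 ± 0.44 (SE). For Trnw the levels were 32.9, 40.7, 29.6, 66.4 and 20.4 CPM in PYY3-36 livers and 98.9, 79.7, 163, 43.7 and 155 CPM in saline livers, where only saline replicate 8 lay within the PYY3-36 range. Of the reads counted in genes, the share in annotated mitochondrial genes was 0.14% to 0.252% in PYY3-36 livers and 0.146% to 0.547% in saline livers. Poly(A) selection keeps such RNAs in small and variable part, reads of repeated ribosomal RNA genes are divided among copies, and the part of library preparation in these differences was not tested.

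Several large fold changes came from PYY3-36 replicate 5 alone. Abcb1b, a multidrug transporter, had 4.54, 19.6, 4.92, 13.6 and 651 CPM in PYY3-36 livers, against 14.3, 8.35, 9.67, 13.5 and 6.09 CPM in saline livers, a log2 fold change of 3.74 that was 0.05 without this library. Cyp3a2, a male-specific cytochrome P450, had 3831, 3425, 2804 and 2865 CPM in PYY3-36 replicates 1 to 4 and 74620 CPM in replicate 5, against 2026 to 8920 CPM in saline livers, so that the log2 fold change of 2.10 reversed to -0.33 without it. Tob1, an antiproliferative gene, stood at 824 CPM in this library and 27.6 to 51.5 CPM in the other 4 PYY3-36 livers, against 17.7 to 42.1 CPM in saline livers, with log2 fold changes of 2.75 and 0.42. Oat, ornithine aminotransferase, behaved alike, with 1990 CPM in this library, 102 to 160 CPM in the other 4 PYY3-36 livers and 87.0 to 220 CPM in saline livers. What made this library differ was not tested.

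Against liraglutide alone, given for the same time to rats of the same batch, PYY3-36 livers had lower levels of several cholesterol synthesis genes. Msmo1, Sqle, Tm7sf2, Mvd and Cyp51 passed an adjusted p of 0.05 by DESeq2, though no gene did by edgeR. In a joint fit of the 20 batch B libraries of the 4 drug and saline groups, edgeR called 0 of 15097 genes (0%) at an adjusted p under 0.05 and gave 379 (2.51%) at that p unadjusted, whereas DESeq2 called 8 genes, namely Msmo1, Sqle, Sult4a1, Pnpla3, Tm7sf2, Ppp1r3g, Mvd and Cyp51. Of the 24 cholesterol synthesis genes, 23 were negative, with a median log2 difference of -0.76 beside 0.00 for all genes. At an unadjusted p under 0.05, 14 of the 24 were lower, beside 1.52% of all genes, and in 6 of the 24 all PYY3-36 livers were below all liraglutide livers, beside 0.344% of all genes. These counts do not place PYY3-36 livers below saline livers. Against saline, 8 of the 24 were positive and 16 negative, with a median of -0.03 and 0 at an unadjusted p under 0.05. Of all genes, 0.823% were higher and 0.969% lower than saline at that threshold. The genes named here were chosen after their values were seen.

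Msmo1, a sterol demethylase of the late pathway, had 20.9, 14.3, 15.5, 13.7 and 14.5 CPM in PYY3-36 livers, against 38.8, 26.6, 52.8, 77.0 and 89.3 CPM in liraglutide livers. The groups were apart, and the log2 difference was -1.85 ± 0.32 (SE, adjusted p = 0.183 by edgeR). Sqle, which makes squalene epoxide and limits the late pathway, had 5.47, 2.57, 2.93, 2.74 and 1.08 CPM in PYY3-36 livers and 14.9, 8.14, 12.2, 18.4 and 35.4 CPM in liraglutide livers, also apart, with a log2 difference of -2.59 (adjusted p = 0.589 by edgeR). In the livers given both agents Msmo1 lay at 51.2 to 83.9 CPM, and in saline livers at 10.6 to 28.2 CPM. Tm7sf2 and Cyp51, which encode further sterol-modifying enzymes, had log2 differences of -1.34 and -1.39 between PYY3-36 and liraglutide livers. Against saline in the same fit, PYY3-36 livers differed by -0.172 for Msmo1, -0.903 for Sqle, 0.165 for Tm7sf2 and 0.0127 for Cyp51. Liraglutide livers differed from saline by 1.68, 1.68, 1.501 and 1.399 for these genes. The differences between the drugs thus lay mostly in liraglutide levels above saline, with Sqle also lower in PYY3-36 livers, with overlap. Between PYY3-36 and liraglutide livers, 725 genes had an unadjusted p under 0.05 without PYY3-36 replicate 5. In that setting 1 gene had an adjusted p under 0.05, an unnamed locus. Without liraglutide replicate 2 Msmo1 was the only gene called.

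Levels of the clock output gene Dbp overlapped between the drug groups. Dbp had 64.3 to 143 CPM in PYY3-36 livers, 61.1 to 190 CPM in liraglutide livers, 62.2 to 232 CPM in livers given both, and 5.26 to 113 CPM in saline livers on the scale of the joint fit. The 3 drug groups share the 5 saline livers, so that low Dbp in saline replicates 5, 6 and 7 enters every comparison with saline. Pdzk1, Ddo, Ppard and Arntl likewise differed from saline in the same direction in all 3 drug groups. Their log2 fold changes were 0.50, 1.47, -1.31 and -1.26 with liraglutide and 0.68, 1.46, -1.75 and -1.54 with both agents. Fos had 0.09 and 0.14 in those groups. This choice of genes was made after their values were seen. Adjusted p was 1 for Dbp between PYY3-36 and liraglutide livers, which does not show that the drugs act alike.

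**Figure D5:**
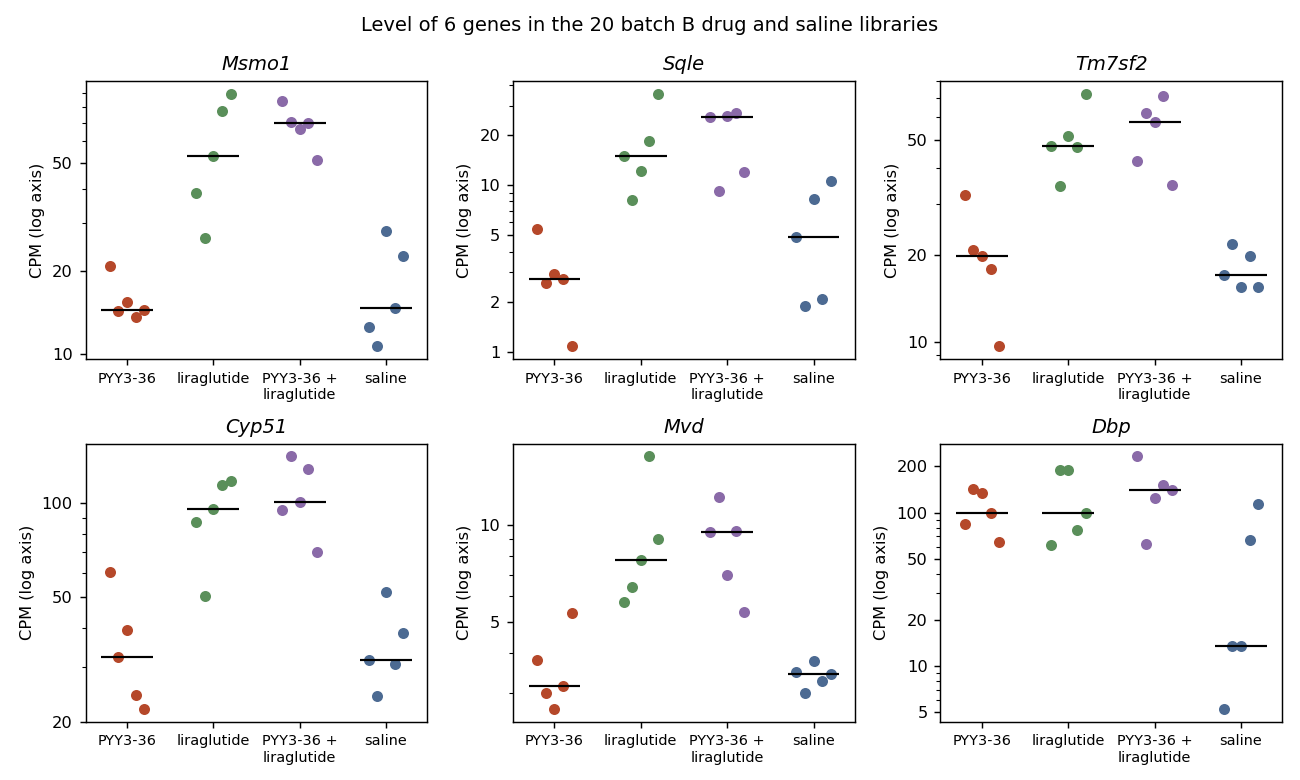
Level of 6 genes in CPM (log axis) in the 5 livers each given PYY3-36, liraglutide, both, or saline, all of batch B, 1 point a liver and the group median as a line. Msmo1 and Sqle were lower in every PYY3-36 liver than in every liraglutide liver, and 3 saline livers had Dbp under 15 CPM.

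The interaction of the agents, that is the PYY3-36 difference in the presence of liraglutide minus the PYY3-36 difference without it, gave 0 of 15097 genes (0%) at an adjusted p under 0.05 by edgeR and by DESeq2. At an unadjusted p under 0.05 edgeR gave 187 genes (1.24%), and 770 without PYY3-36 replicate 5.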

How the data were processed

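Liver RNA was extracted from frozen tissue, and poly(A)-selected, strand-specific libraries were sequenced in single-end mode. Per the study's methods and the submitters' notes, reads were demultiplexed by bcl2fastq (2.20.0.422), trimmed by cutadapt (2.5), aligned to Rnor_6.0 by STAR (2.7.2b) and counted by featureCounts (1.6.4), and the table the authors deposited holds estimated counts for each gene. A read with several positions or genes was divided among them, so that 14.8% of the values in the 10 libraries were not whole and members of gene families share reads. The table is not normalized, and no comparison columns of the authors were used.

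Counts of the 10 libraries were rounded to whole numbers and passed to edgeR (4.0.16, R 4.3.3). Of 38513 genes, filterByExpr kept 14341. After TMM scaling, the groups were compared in edgeR's quasi-likelihood framework with robust estimation, and p-values were adjusted after Benjamini and Hochberg over all tested genes. PYY3-36 versus liraglutide and the interaction came from 1 fit of the 20 batch B drug and saline libraries. The code was tested on simulated counts. No pair of libraries within a group was alike within sampling noise (chi-square per degree of freedom at least 30.2). Labels do not say more than that libraries are separate samples of a group, and p-values measure the spread between them. Libraries held 14762728 to 26765063 reads.

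Alternatives were DESeq2 1.42.0 without and with fold shrinkage, its size factors in edgeR, no filter, limma 3.58.1 voom with quality weights, no robust estimation, unrounded counts, fits with 20, 28 or 55 libraries, and leaving out each library. Leaving out PYY3-36 replicate 5 and saline replicate 9 together was chosen after seeing the data. Gene lists (45, with 22 of 946 symbols not matched) and the comparison itself were chosen with earlier results of these data known. Genes named were the 10 with the lowest p in each direction with a gene name and a mean log2 CPM of 1 or more, the NPY family, Tnf, Il1b and Fgf21, and from the lists the 3 members with the lowest p and those whose groups did not overlap. Not every gene under this rule is described, 1 item is not reported here, and names outside it are marked as chosen after their values were seen. Gene coordinates are those of the deposited table, and promoters are from RefSeq on GRCr8.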

Additional observations from a re-analysis of the deposited data

Results flagged for a closer look

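Among 136 sets of 5 values checked, 25 held a library whose gap to the nearest other library took up most of the range of its group. Chance gives about 1 in 20 such sets for independent, normally distributed values. Most of these sets were instead levels of genes picked from the same data, so that this rate is no reference for the 25. In 14 of the 25 the library was PYY3-36 replicate 5. This library was the extreme one among PYY3-36 libraries in the first principal component (144), in the median Spearman correlation with the other libraries (0.816, next lowest 0.959) and in the share of genes over 2-fold from the others (45.6%). Saline replicate 9 was so among saline libraries for the first principal component (47.9) and the correlation (0.929).

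Genes at which PYY3-36 replicate 5 was far above the other 4 PYY3-36 livers were Tob1 (824 CPM), Abcb1b (651 CPM), Abcb1a (34.7 CPM), Oat (1990 CPM), Cyp3a2 (74620 CPM), Pcna (74.7 CPM), Uqcrc2 (505 CPM), Npas2 (30.0 CPM), Il18 (10.2 CPM), Il1b (12.3 CPM) and Fam184a (4.64 CPM). Pdzk1 was highest in PYY3-36 replicate 2 (43.8 CPM).

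Among saline livers, replicate 5 stood alone for Srd5a1 (115 CPM), Ccl3 (3.04 CPM) and Hmox1 (81.0 CPM), which encodes haem oxygenase 1. Saline replicate 7 did so for Nr4a1 (14.8 CPM), Rgs16 (37.6 CPM) and Fasn (111 CPM), and saline replicate 8 for Calr (627 CPM) and Pcna (11.1 CPM). The causes were not tested.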

How the results depend on the processing

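PYY3-36 versus saline gave 0 genes at an adjusted p under 0.05 in the main fit and in all 21 alternatives. Of the 62 genes followed through them, 58 kept their sign. The 4 that reversed were Abcb1b (-0.00618 with limma-voom quality weights, -0.0895 without PYY3-36 replicate 5 and saline replicate 9, 0.0539 to 4.09 when 1 library was left out), Npy (0.242 with those weights, 0.0541 without that pair, -0.353 to 0.201 when 1 library was left out), Dpp4 (-0.0281 to 0.141 when 1 library was left out) and Cyp3a2 (-0.332 to 2.62 when 1 library was left out). For Cyp3a2 the negative value came from leaving out PYY3-36 replicate 5. The 62 did not include every gene named above. Outside them, Hsp90aa1, Canx, Dnajb9, Herpud1, Hspa8 and Hspb1 also reversed without this library. Their log2 fold changes went from 0.55, 0.75, 2.03, 0.31, -0.15 and -0.23 to -1.07, -0.37, -0.12, -0.13, 0.07 and 0.05. Cyp51, also outside them, went from -0.0023 in the main fit to 0.0127 in the joint fit. PYY3-36 versus liraglutide gave 8 genes with DESeq2 in place of 0, and 0 to 1 when 1 library was left out. The cause was not tested. The interaction gave 0 genes throughout.

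No paired analysis was possible for PYY3-36 versus saline because these groups share only 1 replicate number. PYY3-36 and liraglutide share numbers, and same-numbered libraries had deviations that correlated at 0.357, 0.381, 0.544 and 0.473 for numbers 1, 2, 3 and 5 but at -0.625 for number 4. Since 1 pair was negative and the labels give no shared animal or day, the numbers were not taken to pair the rats. With the replicate block 0 genes were called, with 159 in place of 379 at an unadjusted p under 0.05. The biological coefficient of variation of the fit was 0.437 with all 10 libraries, 0.296 without PYY3-36 replicate 5 and 0.242 without both libraries that stood apart. Without a filter on low counts, 620 of 24413 genes had an unadjusted p under 0.05 in PYY3-36 versus saline. In the fit of 55 libraries with a batch term 659 of 16508 did, beside 257 of 14341 in the main fit.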
